A study of Mus musculus with 12 samples.

Results

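The chemokine receptor genes Ccr8 (ENSMUSG00000042262), Ccr4 (ENSMUSG00000047898) and Ccr3 (ENSMUSG00000035448) were followed in T cells sorted from mouse tumours. They were taken by symbol from the 33696 genes of 4 single-cell count matrices, and all 3 were present. MC38 is a mouse colorectal cancer line. It was grown in mice heterozygous for Kaede, a green fluorescent protein that turns red under violet light. The tumour-draining lymph node of all groups was lit on day 14, so a red cell found in the tumour later had been under that light. A green cell is read here as one that had not. How fully the light turned the node's cells red, and for how long, is not known from these data. Irradiated tumours (RT) received 12 Gy at once, and FTY720, a drug that acts on sphingosine-1-phosphate receptors, was given intraperitoneally at 10 µg on day 15. Tumours were taken 24 h (day 1) or 72 h (day 3) after the radiation time. The 6 conditions were NT and RT, each at day 1 and at day 3, and FTY720 and RT+FTY720, both at day 3. The labels do not spell out NT, which is read here as neither radiation nor FTY720. Each condition had 2 replicates, and each replicate was a pool of 4 tumours from 4 mice. T cells were enriched on CD4/CD8 beads, stained with hashtag antibodies and sorted as live CD90.2-positive red or green cells, which gave 12 tumour pools and 24 hashed samples in 4 wells. Each replicate filled 1 well with both day 1 conditions and NT day 3 and another with RT day 3 and both FTY720 conditions, so RT day 3 against NT day 3 and the mean FTY720 contrast ran across wells. Those contrasts and the well cannot be told apart, whereas RT+FTY720 against RT and against FTY720 ran within wells. The mean of the 3 radiation contrasts (day 1, day 3 and day 3 with FTY720) contains RT day 3 against NT day 3. Differences between the day 3 radiation contrast and the other radiation contrasts contain it too. In these the well cannot be told apart either.

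The colour names conflicted for 12 of the 24 hashed samples. In both replicate 2 wells the hashtag names inside the matrices gave red and green to the opposite tags from the tag numbers of the labels, while in both replicate 1 wells they gave the same colours. Colours here follow the matrices, and the receptors' levels and shares by colour are also given with the label colours and, where they could be fitted, in the replicate 1 wells alone. In these runs the label colours are the replicate 1 hashtag names carried to replicate 2 by tag sequence. They equal the matrix colours in replicate 1 by construction, so agreement there is no check of the colours. Results by lineage, by co-detection and by condition sum both colours and do not rest on this choice.

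CCR8, CCR4 and CCR3 are receptors on the cell surface that sense chemokines and steer cell migration. CCL1 is a ligand of CCR8 (CCL8 is another in the mouse), CCL17 and CCL22 are the ligands of CCR4, and CCR3 binds eotaxins such as CCL11 and CCL24 and also CCL5. CCR4 and CCR8 are known on regulatory T cells (Treg), the Foxp3-dependent T cells that restrain immune responses, and CCR8 is known as a marker of Treg inside tumours. CCR3 is best known on eosinophils.

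After filters, 2740 of 2816 barcodes were kept, with between 17 and 322 cells and between 337319 and 7891316 UMIs in each hashed sample (a UMI marks 1 captured transcript) and a median of 20124 UMIs per cell. No barcode sequence was shared between wells. Cells were classed by UMIs alone. The Foxp3 class (505 cells) had at least 2 Foxp3 UMIs and fewer than 2 of Cd8a and Cd8b1 together. The CD8 class (1581 cells) had at least 2 Cd8a and Cd8b1 UMIs and no Foxp3. The CD4 conventional class (482 cells) had at least 1 Cd4 UMI, no Foxp3 and fewer than 2 Cd8a and Cd8b1 UMIs together. The other 172 cells were in no class. The summed Treg markers stood at a median of 10645 CPM (counts per 1e6 UMIs) in the Foxp3 class against 2171 in the CD4 conventional and 773 in the CD8 class. Foxp3, which the class rule sets, is 1 of these 8 markers, with a median of 785 CPM in the Foxp3 class. All 8 passed the test as higher in the Foxp3 class in both comparisons. Of all genes, 32.4% passed against the CD4 conventional and 46.8% against the CD8 class, in either direction. Eosinophil markers were near absent in the Foxp3 class, with 1 UMI of Siglecf and none of Epx, Prg2, Il5ra, Ear1 and Ear2, and the 4 mast cell and basophil markers had no UMI there. Myeloid markers summed to a median of 16.1 CPM (highest pool 79.6) and MC38 markers to 19.1 (highest 80.8) in the Foxp3 class. Of the MC38 markers there, Epcam had 179 UMIs, Krt18 15 and Krt8 none, so that sum is mostly 1 gene. Whether myeloid or MC38 cells were present in the class, and their part in the results below, was not tested.

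The 250 bases before each gene's start are shown because the 3 receptors moved in different directions from cell to cell. All 3 genes lie on chromosome 9, and the sequences are from RefSeq, build GRCm38.p6, printed 5′ to 3′ on the gene's own strand: Ccr8 at chr9:120091883-120092132 (plus strand), Ccr4 at chr9:114496545-114496794 (minus strand) and Ccr3 at chr9:124021721-124021970 (plus strand). Capitals mark the AP-1 motif TGANTCA.
Ccr8: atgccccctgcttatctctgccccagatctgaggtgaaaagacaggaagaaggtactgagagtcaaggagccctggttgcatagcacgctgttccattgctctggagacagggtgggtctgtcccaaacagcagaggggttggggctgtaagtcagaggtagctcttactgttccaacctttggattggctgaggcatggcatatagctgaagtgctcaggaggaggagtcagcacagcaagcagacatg
Ccr4: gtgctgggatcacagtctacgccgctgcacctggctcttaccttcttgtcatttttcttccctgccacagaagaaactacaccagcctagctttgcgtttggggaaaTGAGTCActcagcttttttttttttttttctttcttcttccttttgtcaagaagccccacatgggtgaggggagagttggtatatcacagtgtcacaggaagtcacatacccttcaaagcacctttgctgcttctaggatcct
Ccr3: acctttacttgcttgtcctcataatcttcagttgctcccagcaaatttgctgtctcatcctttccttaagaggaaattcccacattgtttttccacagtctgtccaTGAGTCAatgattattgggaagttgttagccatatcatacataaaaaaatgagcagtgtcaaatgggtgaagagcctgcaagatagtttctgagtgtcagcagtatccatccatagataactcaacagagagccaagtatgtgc
On a search of both strands, Ccr4 and Ccr3 each held 1 TGANTCA, starting at -143 and -144 from the gene start, and Ccr8 held none; 6.75% of 32851 promoters of this length hold it. The core GGAAA bound by NFAT was found once in Ccr4, adjoining TGANTCA without overlap, 3 times in Ccr3 and not in Ccr8, and is in 55.6% of promoters. The GATA core AGATAA was found at -239 in Ccr8 and at -30 in Ccr3, and is in 9.99% of promoters. These matches are descriptions of the letters only.

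Ccr8 was highest in the Foxp3 class, present at a lower level in both other classes, and not restricted to any. Summed per tumour pool, its lowest, median and highest levels were 185, 276 and 439 CPM in the Foxp3 class (mean 277 ± 77.5 SD, n = 12). They were 24.5, 147 and 248 CPM in the CD4 conventional class (127 ± 68.5, n = 11) and 60.1, 86.6 and 166 CPM in the CD8 class (94.6 ± 33.0, n = 12). Every Foxp3 sum lay above every CD8 sum, while the Foxp3 and CD4 conventional sums overlapped. Ccr8 was higher than in the CD8 class in 12 of 12 pools, by 1.69 ± 0.19 (log2 fold change ± SE, edgeR adjusted p = 1.01e-08). It was higher than in the CD4 conventional class in 9 of 11 pools, by 1.23 ± 0.21 (edgeR adjusted p = 2.14e-05). These classes differ widely: 46.8% of 8087 genes passed in the first comparison and 32.4% in the second, so passing alone sets no gene apart.

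Ccr4 was shared by the Foxp3 and CD4 conventional classes and nearly absent from CD8 cells. Its lowest, median and highest sums were 30.9, 94.5 and 194 CPM in the Foxp3 class (95.9 ± 53.3 SD, n = 12), 37.6, 69.7 and 149 in the CD4 conventional class (77.4 ± 36.2, n = 11) and 0, 4.93 and 9.30 in the CD8 class (4.58 ± 2.83, n = 12). The CD4 classes overlapped, and the CD8 sums lay below both. Against CD8 cells Ccr4 was higher by 4.20 ± 0.23 in 12 of 12 pools (edgeR adjusted p = 1.3e-15). Against the CD4 conventional class the difference was 0.37 ± 0.21, higher in 6 of 11 pools, and did not pass (edgeR adjusted p = 0.188).

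Ccr3 was the most restricted to the Foxp3 class and the most uneven between pools. The Foxp3 sums ran from 0 through a median of 34.7 to 252 CPM (51.7 ± 66.5 SD, n = 12), and the sum at 0 was FTY720 day 3 replicate 1, where 0 of 115587 UMIs in 7 cells allows up to 26 CPM. In the CD4 conventional class the median was 1.64 and the highest 39.8 CPM, with 4 of 11 sums at 0, and in the CD8 class 8 of 12 sums were at 0 and 8 UMIs were counted in all. The Foxp3 sums overlapped both. Ccr3 was higher than in the CD4 conventional class by 3.32 ± 0.42 in 10 of 11 pools (edgeR adjusted p = 2.33e-07). It was higher than in the CD8 class in 11 of 12 pools (edgeR adjusted p = 8.4e-14), with a fitted difference of 7.15 ± 0.47 that rests on the 4 CD8 sums above 0.

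**Figure D1:**
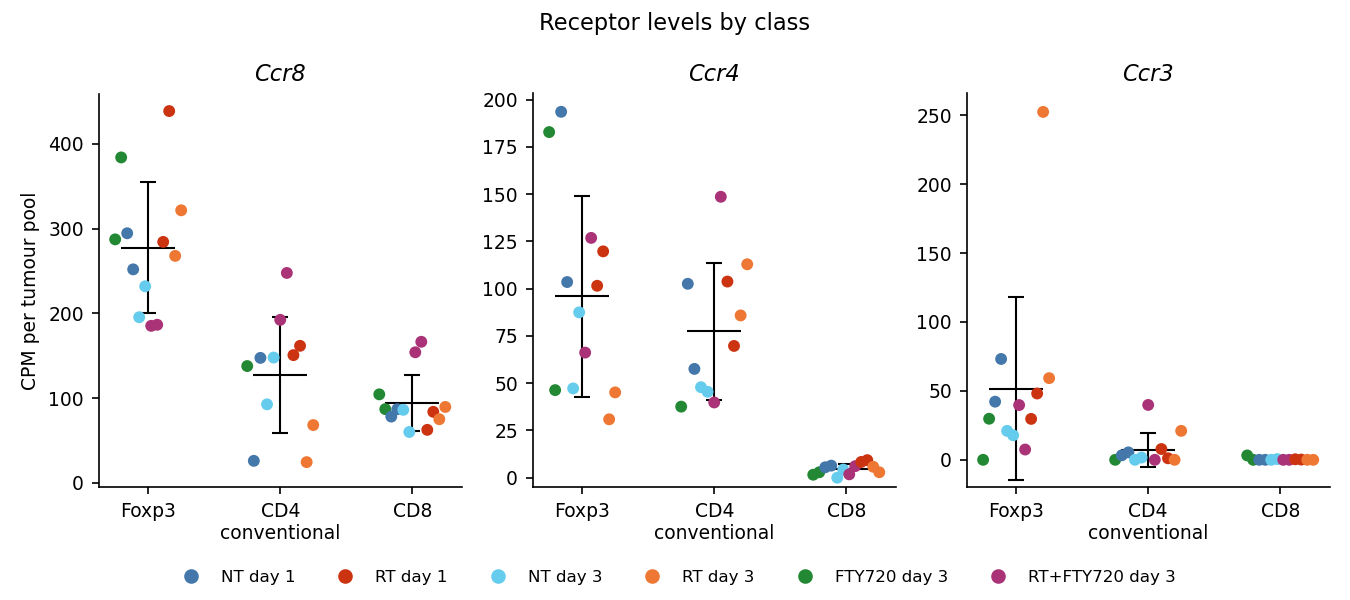
Level of Ccr8, Ccr4 and Ccr3 (CPM of summed UMIs, y axis) in the Foxp3, CD4 conventional and CD8 classes (x axis); each point is a tumour pool coloured by condition, and bars give the mean ± SD. Ccr8 in the Foxp3 class runs from 185 to 439 CPM, above all CD8 sums, and Ccr3 in the Foxp3 class runs from 0 to 252 CPM.

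Of 20 other chemokine and homing receptors, 12 had enough counts to test by class. Against the CD4 conventional class 4 were higher in the Foxp3 class (among them Ccr2 by 2.01 and Ccrl2 by 1.45, log2) and 5 were lower (Cxcr6 by -1.90, Ccr7 by -1.75, S1pr1 by -1.33, Gpr183 by -0.92 and Cxcr4 by -0.53). The list's median was -0.28, beside -0.03 over all genes. Of all 8087 genes 32.4% passed there, 1247 higher and 1370 lower. Against the CD8 class 7 were higher, led by Ccr6 at 4.53 and Ccr2 at 2.72, and 4 lower, led by Cxcr6 at -2.36 and Cx3cr1 at -2.30. The median was 0.65, beside -0.06 over all genes, of which 46.8% passed, 1676 higher and 2108 lower. CCR6 and CCR2 steer cells to CCL20 and CCL2, and CXCR6 binds CXCL16.

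Counted per cell, 61.4% of Foxp3-class cells had a Ccr8 UMI (exact 95% interval 57.0 to 65.7), against 37.8% (33.4 to 42.3) of CD4 conventional and 36.0% (33.6 to 38.4) of CD8 cells. Median depths were 19681, 14928 and 22625 UMIs. Thinned to 5000 UMIs per cell, the shares were 41.4, 24.2 and 19.1%. CD8 cells with a UMI of Ccr7 and of Lef1, genes of naive T cells, served as background, a choice made after seeing the data: 45 of 411 (10.9%) had a Ccr8 UMI at a median depth of 23887, against 44.8% of the 1170 other CD8 cells at 22274 (4.39 and 24.4% after thinning). The other CD8 cells thus carried Ccr8 above that background. All intervals and limits here cover counting error only.

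The same count gave Ccr4 in 54.7% of Foxp3-class, 30.7% of CD4 conventional and 5.31% of CD8 cells (33.3, 22 and 2.07% after thinning). The CD8 share lies below that of the CD8 cells with Ccr7 and Lef1, 6.81%. That group was no clean background for Ccr4, since 28 of its cells held 79 UMIs and 1 of them 19. Ccr3 was found in 22.4, 1.87 and 0.443% of cells of these classes (12.4, 1.08 and 0% after thinning), and in 1 of 411 CD8 cells with Ccr7 and Lef1 (0.243%).

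Ccr8-positive cells lay mostly outside the Foxp3 class: of 1124 cells with a Ccr8 UMI, 50.6% were in the CD8, 27.6% in the Foxp3 and 16.2% in the CD4 conventional class. Among the 240 cells with at least 10 Ccr8 UMIs the CD8 class held 41.3% and the Foxp3 class 40.8%. The Foxp3 class held 50.7% of the 544 cells with a Ccr4 UMI and 67.5% of the 40 with at least 10. It held 80.1% of the 141 cells with a Ccr3 UMI and 92.3% of the 13 with at least 10. These shares follow the bead enrichment and the sort, which set how many cells of each class were sequenced.

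Within the Foxp3 class, Ccr8 was found in a similar share of cells at most steps of Foxp3 UMI count, while Ccr4 was found most often at the highest. After thinning, the share with a Ccr8 UMI was 42.9% at 2 to 4 Foxp3 UMIs (42 cells), 41.7% at 5 to 9, 42.1% at 10 to 19, 44.0% at 20 to 29 and 33.3% at 30 or more (63 cells), against 24.2% of the CD4 conventional cells, which have none. Ccr4 stood at 26.2, 24.1, 36.3, 30.3 and 50.8% over the same steps, and Ccr3 at 14.3, 11.1, 11.1, 12.8 and 15.9%. The steps count Foxp3 UMIs before thinning, and median depth over them was 13562, 13506.5, 19404, 24381 and 28554 UMIs. They therefore follow depth as well as Foxp3 level. No test was made across these steps.

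A small share of cells held much of each receptor's UMIs. The top 10% of the Foxp3 class (51 cells) held 57.3% of its Ccr8, 46.6% of its Ccr4 and 79.4% of its Ccr3 UMIs. The highest cell had 86 Ccr8, 22 Ccr4 or 27 Ccr3 UMIs, and the median cell with any had 5, 3 and 3. A pool with few cells can thus follow 1 cell. In RT day 3 replicate 1, 1 of 12 Foxp3-class cells held all 52 Ccr8 UMIs (8.33% of cells with a UMI), whereas the share in the other 11 pools was between 50 and 69.6%.

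Of the 505 Foxp3-class cells, 140 showed Ccr8 alone, 80 Ccr4 alone, 115 both of these without Ccr3 and 40 all 3 receptors. Ccr4 with Ccr3 was seen in 41, Ccr8 with Ccr3 in 15 and Ccr3 alone in 17, while 57 cells showed none. After thinning, 26 of 61 Ccr3-positive cells had Ccr4 and 14 had Ccr8.

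At equal depth Ccr8 and Ccr4 were found in different Foxp3-class cells more often than together. With cells thinned to 5000 UMIs, 19.97% of cells with Ccr4 also had Ccr8, against 48.9% of cells without Ccr4 (means over 11 pools). The difference was -29.0 percentage points (SD 18.9), lower in 11 of 11 pools (exact sign-flip permutation over pools, two-sided p = 0.000977, adjusted over the 3 pairs 0.00293). Over all pools 36 of 164 Ccr4-positive cells had both. Without thinning the difference was -14.2 points, 49.1 against 63.3%, lower in 9 of 11 pools (adjusted exact p = 0.0605), so the test passed only at matched depth.

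Ccr8 was likewise rarer in cells with Ccr3, at 16.9 against 40.0%, a difference of -23.1 points (SD 11.5), lower in 7 of 7 pools (adjusted exact p = 0.0156). Ccr4 went the other way and was found in 49.9% of Ccr3-positive against 28.5% of Ccr3-negative cells. That difference was 21.4 points (SD 29.6), higher in 7 of 7 pools (adjusted exact p = 0.0156), and 10.8 without RT day 1 replicate 1. For 7 pools 0.0156 is the smallest p the test can give. Ccr3 thus lay with Ccr4 and apart from Ccr8.

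**Figure D2:**
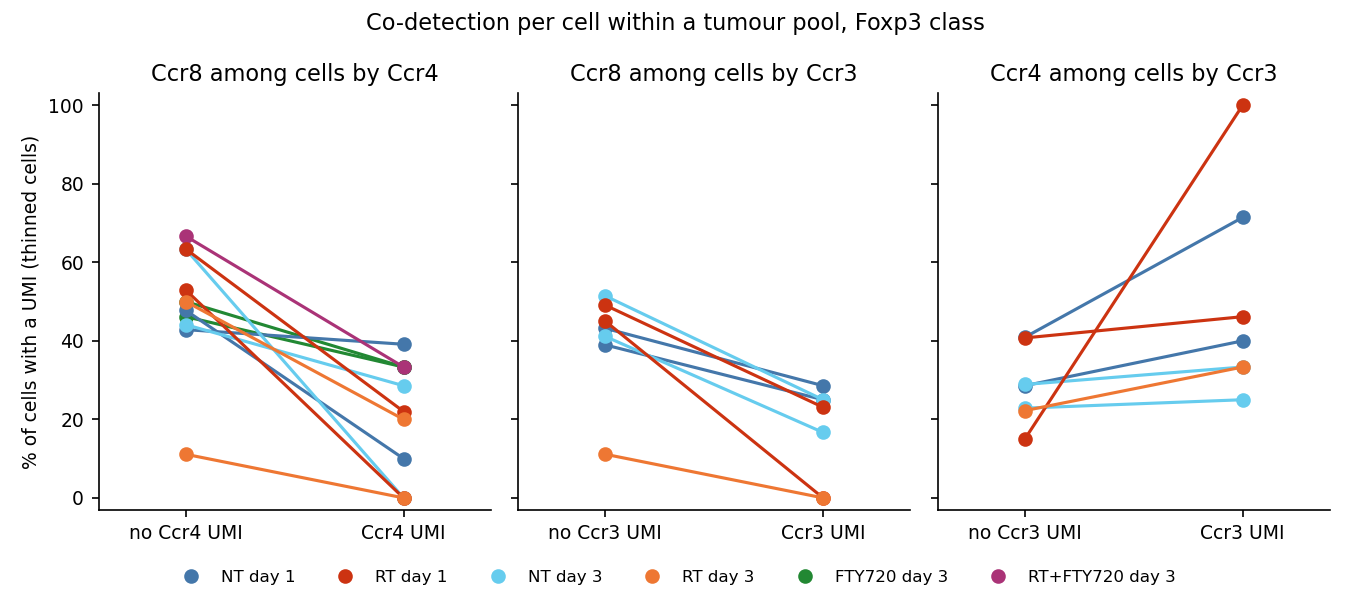
Share of Foxp3-class cells with a UMI of the first receptor (percent, y axis) among cells without and with the second (x axis), after thinning to 5000 UMIs per cell; each line is a tumour pool. Ccr8 falls on every line from Ccr4-negative to Ccr4-positive cells (means 48.9 and 19.97%) and on every line for Ccr3 (40.0 and 16.9%), while Ccr4 rises on every line for Ccr3 (28.5 to 49.9%).

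To see which genes went with each receptor, cells of the Foxp3 class with and without it were summed per pool and compared. Sums of the 8 pools with enough cells on both sides gave 1798 of 6508 genes, 27.6%, past the test between Ccr8-detected and Ccr8-undetected cells (911 higher and 887 lower, Ccr8 itself among them, which the split sets). Detected cells were deeper in 8 of 8 pools, with pool medians centred on 23129 against 16116 UMIs. That share of all genes is the background against which the counts for lists are read.

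Ccr4 was at 4.79, 71.9 and 169 CPM (lowest, median, highest) in Ccr8-detected and at 50.4, 147 and 283 CPM in undetected cells (means 75.6 ± 53.7 and 152 ± 69.0 SD, n = 8). The groups overlapped, but within pools it was lower in 7 of 8, the exception being RT day 1 replicate 1 (107 against 105). The difference was -1.01 ± 0.24 (edgeR adjusted p = 0.00393) and -1.30 after thinning. Ccr3 stood at 8.85, 18.2 and 71.6 CPM in detected and at 36.4, 67.9 and 106 in undetected cells. It was lower in 7 of 8 pools, all but RT day 3 replicate 2 (71.6 against 40.3), by -1.28 ± 0.29 (edgeR adjusted p = 0.00265; -1.29 after thinning).

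By the naming rule (the 10 largest changes each way among genes past the test with 1 direction in every pool, of 512 higher and 442 lower), Ccr8-detected cells were higher in the chemokine Ccl4 (5.86 ± 0.53, edgeR adjusted p = 8.28e-07) and in the metallothioneins Mt2 (4.16) and Mt1 (2.91), which bind metals. They were also higher in Srm (3.28), which makes spermidine, in Apex1 (3.07), a DNA repair enzyme, in the ribosome assembly genes Mdn1 (2.54) and Nop16 (2.46), and in Myo10 (3.53), Fam83g (3.19) and Plek (2.63). Lower were Klf3 (-2.43 ± 0.22, edgeR adjusted p = 8.28e-07) and Klf2 (-1.74), transcription factors of resting T cells, and S1pr1 (-2.01), the receptor by which T cells leave lymph nodes. The interferon-induced genes Ifit3b (-2.21), Ifit3 (-2.10) and Oas2 (-1.83) were lower too, as were Gm2682 (-2.27), Pde2a (-2.14), Nrp1 (-1.88) and Emb (-1.78).

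Of 20 tumour Treg effector genes, 10 were higher and 2 lower in Ccr8-detected cells (list median 0.61, all genes 0.00). The higher ones included the checkpoint receptors Havcr2 (1.78), Pdcd1 (1.48), Tigit (0.34) and Ctla4 (0.46), the cytokine Il10 (1.53), the TNF receptors Tnfrsf4 (1.14) and Tnfrsf9 (0.91), and Cd83 (1.64), Cxcr6 (1.10) and Il12rb1 (0.52). Il1rl1, the IL-33 receptor, was lower by -1.56 and Itgae by -0.47. Of 10 Treg core genes 2 rose, Itgb8 (2.23) and Il2ra (0.44), and Nrp1 fell (median 0.00). Of 8 tested genes of the TCR response 4 rose, Irf8 (2.16), Myc (1.88), Nr4a3 (1.20) and Nr4a1 (0.55), and 2 fell, Cd69 (-0.69) and Tnfaip3 (-0.37), with a median of 0.38.

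Of 19 transcription factors 5 were higher, Tbx21 (1.05), Id2 (0.97), Rel (0.93), Nfkb2 (0.80) and Nfkb1 (0.69). The 4 lower ones were Klf3, Klf2, Lef1 (-1.22) and Bach2 (-1.09), and the median was 0.12. Among 10 other receptors tested, Ccr7 (1.73) and Cxcr6 were higher. S1pr1, Cxcr4 (-0.92), Cxcr3 (-0.81) and Ccr2 (-0.69) were lower, with a median of -0.21. After thinning, Ccr7, the receptor that guides cells to lymph nodes, no longer passed (1.33, edgeR adjusted p = 0.111), nor did Cxcr6 and Cxcr4. None of 3 cycling genes tested passed.

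The Ccr4 split gave a shorter list: 111 of 7184 genes passed, 1.55% (51 higher, 60 lower, 7 pools), with pool median depths centred on 22034 in detected and 19030 UMIs in undetected cells. Without NT day 1 replicate 2 the count was 18. Ccr8 was at 145, 218 and 347 CPM in Ccr4-detected and 253, 334 and 652 CPM in undetected cells (means 227 ± 73.2 and 403 ± 153 SD, n = 7). It was lower in 7 of 7 pools although the groups overlapped, by -0.78 ± 0.17 (edgeR adjusted p = 0.0310; -1.12 after thinning). The call was lost without either NT day 1 pool, NT day 3 replicate 1 or RT day 1 replicate 2, with an adjusted p of up to 0.124. Over all pools left out in turn the difference lay between -0.88 and -0.67. Ccr3 differed by 0.86 ± 0.43, higher in 5 of 7 pools, and did not pass (edgeR adjusted p = 0.497).

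By the naming rule (of 28 higher and 43 lower genes with 1 direction in every pool), Ccr4-detected cells were higher in Emb (2.02 ± 0.25, edgeR adjusted p = 0.00141) and in the cytokine receptor genes Il1rl1 (1.57) and Il18rap (1.19). The others were Tnfrsf25 (1.18), the cycling gene Mki67 (1.27), St6gal1 (1.5), Trbv3 (1.49), Ifit1bl1 (1.21), Pde2a (1.18) and Rapgef5 (1.27, and -0.053 after thinning). Mki67 and, among the lower genes, Srgap3 did not pass after thinning. Ccr4-detected cells were lower in the chemokines Ccl3 (-3.55 ± 0.34, edgeR adjusted p = 0.000106) and Ccl4 (-2.71), in Cxcr6 (-2.71), Il10 (-2.29) and Fasl (-1.65), and in Plek (-2.35), Plac8 (-2.13), Slc37a2 (-2.08), Fmnl2 (-1.87) and Srgap3 (-1.79). Ccl4 and Plek were among the named genes higher in the Ccr8 split, and Emb and Pde2a among those lower in it. Both splits use the same cells.

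Of the 20 effector genes 1 rose with Ccr4, Il1rl1, and 6 fell: Cxcr6, Lag3 (-2.54), Il10, Tigit (-0.75), Havcr2 (-0.75) and Entpd1 (-0.71), with a list median of -0.28 beside -0.01 over all genes. Nrp1 (1.16) rose and Itgb8 (-1.28) fell among 10 Treg core genes. S1pr1 (0.97) rose and Cxcr6 fell among 10 other receptors. Of 19 transcription factors Tbx21 (-1.43), the T-bet gene, fell and none rose, and Irf8 (-0.69) alone fell of 9 TCR response genes.

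**Figure D3:**
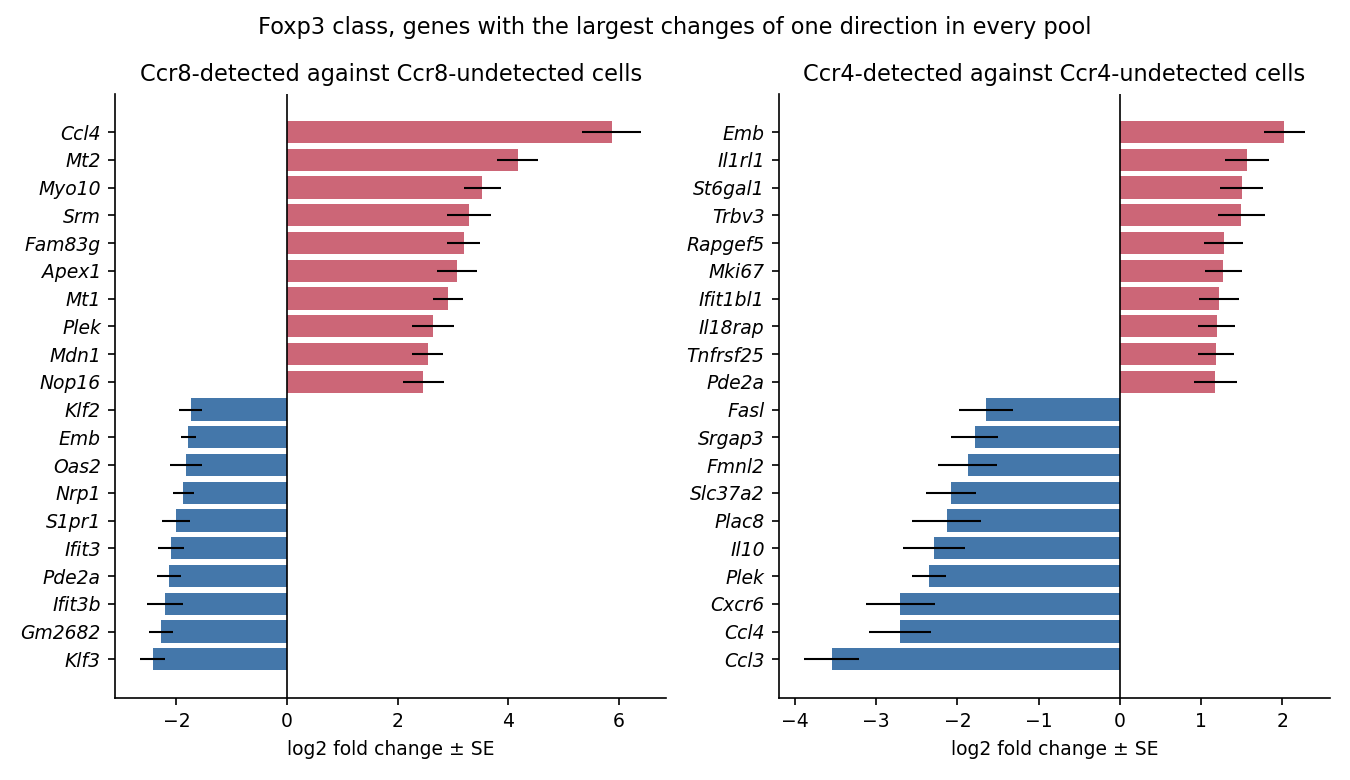
Log2 fold change ± SE (x axis) of the 20 named genes between Foxp3-class cells with and without Ccr8 (left, 8 pools) and with and without Ccr4 (right, 7 pools); bars to the right are higher in cells with the receptor. Ccl4 is the longest bar to the right for Ccr8 (5.86) and lies to the left for Ccr4 (-2.71), and Emb does the reverse (-1.78 and 2.02).

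A split by Ccr3, added after seeing the data, passed 73 of 6788 genes, 1.08% (33 higher, 40 lower, 7 pools), and 11 without NT day 1 replicate 2. Ccr8 stood at 0, 104 and 381 CPM in Ccr3-detected and at 230, 349 and 483 CPM in undetected cells. It was lower in 7 of 7 pools, by -1.44 ± 0.26 (edgeR adjusted p = 0.0168; -0.82 and 0.162 after thinning), and the call was also lost without NT day 1 replicate 1 (-1.34, adjusted p = 0.0691). Ccr4 was higher in 6 of 7 pools by 0.58 ± 0.17 and did not pass (edgeR adjusted p = 0.108). Among effector genes Il1rl1 (1.52), Klrg1 (1.25) and Itgae (0.59) were higher and Tnfrsf9 and Tnfrsf4 (both -0.68) lower. S1pr1 (0.97), Ccr2 (0.77), Nrp1 (0.87) and Klf2 (0.56) were higher, and Irf8 (-1.04) and Myc (-1.44) lower. In the Ccr8 split Il1rl1, Itgae, S1pr1, Ccr2, Nrp1 and Klf2 fell and Irf8, Myc, Tnfrsf9 and Tnfrsf4 rose, while Klrg1 did not pass. Both splits use cells of the same class and pools, in which Ccr8 and Ccr3 were found apart, so the opposite directions are no separate result.

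Since Ccr8 was also found outside the Foxp3 class, the same split was made there, again after seeing the data. In the CD8 class 2105 of 8182 genes passed, 25.7% (1022 higher, 1083 lower, 12 pools), and in the CD4 conventional class 459 of 5137, 8.94% (226 higher, 233 lower, 8 pools). Ccr8-detected cells were deeper in 12 of 12 and in 6 of 8 pools. In CD8 cells they were higher in Igfbp7 (3.03), Tnfrsf4 (2.63) and Rgs16 (2.50) and lower in Klf3 (-3.65), Lef1 (-2.96), S1pr1 (-2.17) and Eomes (-2.32). Of 14 effector genes tested 11 were higher and 1, Gzmb (-0.58), lower. In CD4 conventional cells Tnfsf8 (2.40), Rbpj (2.27), Il2ra (1.94) and Dusp4 (2.14) were higher and Klf2 (-2.28) and Tcf7 (-2.23) lower, with 6 of 12 effector genes higher and none lower. Ccr4 did not pass in CD4 conventional cells (-0.32 ± 0.20, lower in 7 of 8 pools, edgeR adjusted p = 0.351).

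Genes called in both the Foxp3 and the CD8 split numbered 779, which is 44.7% of the 1743 and 45.1% of the 1729 called genes that were tested in the other, and 722 of them had 1 direction (295 higher, 427 lower). With the CD4 conventional split the Foxp3 split shared 254 genes, 16.9% of 1500 and 58.3% of 436, and 227 had 1 direction. In all 3 classes 186 genes were called in 1 direction, 73 higher and 113 lower. Rgs16 (1.75, 2.50 and 3.41 in the Foxp3, CD8 and CD4 conventional classes), Rbpj, Tnfrsf4, Pdcd1 and Irf8 were higher, and Klf3, Klf2, S1pr1 and Lef1 lower. The classes come from the same pools, and in each the cells with Ccr8 were the deeper ones in most pools.

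Red and green Foxp3-class cells (351 and 154) were compared in the 6 pools with at least 5 of each, and Ccr4 was the receptor that differed. Its level from green to red was 22.9 to 218 CPM in NT day 1 replicate 1, 64.5 to 136 in NT day 1 replicate 2, 41.4 to 62.8 in NT day 3 replicate 1, 66.8 to 105 in NT day 3 replicate 2, 59.8 to 147 in RT day 1 replicate 2 and 36.6 to 27.6 in RT day 3 replicate 1. It was higher in red in 5 of 6 pools, all but RT day 3 replicate 1, although the groups overlapped (means 116 ± 67.2 and 48.7 ± 17.7 SD). The difference was 1.07 ± 0.24 (edgeR adjusted p = 0.0493), where 71 of 6942 genes, 1.02%, passed (36 higher, 35 lower), and 0 without NT day 1 replicate 2. This call lies at the threshold: it was lost without any 1 of the 6 pools (0.90 to 1.18, adjusted p 0.0510 to 0.278). With the label colours the value was -0.33 (edgeR adjusted p = 1.00), and in the replicate 1 wells alone Ccr4 did not reach the count filter.

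Ccr8 went from green to red as 194 to 320, 201 to 307, 209 to 202, 202 to 266, 451 to 474 and 0 to 479 CPM in these pools in the same order. It was higher in red in 5 of 6 pools, but by 0.58 ± 0.30, which did not pass (edgeR adjusted p = 0.419). It was 0.21 with label colours and 1.06 in the replicate 1 wells. The 479 CPM rests on the 1 cell described above and the 0 on 6 green cells with 88028 UMIs, which allow up to 34.1 CPM. Ccr3 went from 91.5 to 41.0, 60.6 to 87.9, 18.4 to 27.9, 24.4 to 16.0, 41.7 to 54.1 and 476 to 92.0 CPM. It was higher in red in 3 of 6 pools (-0.32 ± 0.34, edgeR adjusted p = 0.740; -0.60 with label colours and -1.25 in the replicate 1 wells), and the 476 CPM comes from 39 UMIs in 3 of 6 cells.

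**Figure D4:**
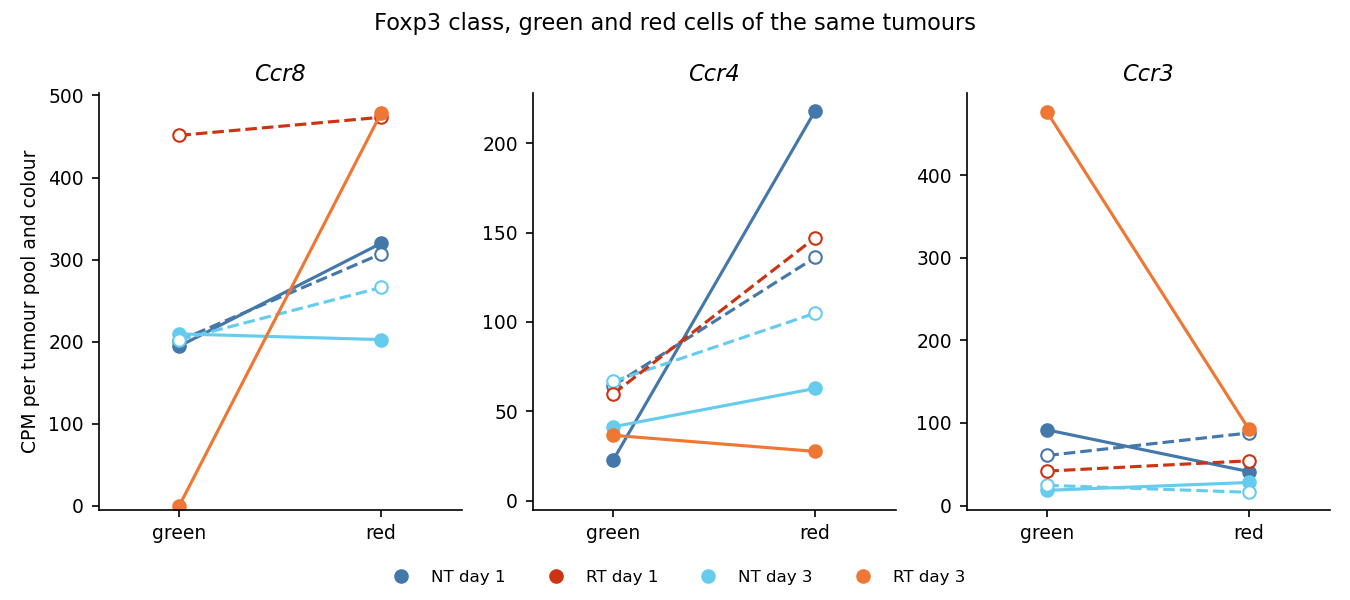
Level of Ccr8, Ccr4 and Ccr3 (CPM, y axis) in green and red Foxp3-class cells (x axis), with a line per tumour pool for the 6 pools that have both; filled points and solid lines are replicate 1, where names and labels give the same colours, and open points and dashed lines are replicate 2. Ccr4 rises on 5 of 6 lines, most in NT day 1 replicate 1 (22.9 to 218 CPM).

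As a share of cells at equal depth, Ccr4 was found in 39.0% of red and 18.3% of green Foxp3-class cells, higher in 6 of 6 pools. The difference was 20.7 points, with an exact sign-flip permutation p of 0.0313, the smallest that 6 pools allow, and 0.0938 adjusted over the 3 receptors. It was 20.04 points in the 3 pools of the replicate 1 wells and -0.653 with the label colours. Ccr8 differed by 1.70 points (adjusted exact p = 0.719) and Ccr3 by 4.01 (0.609), or by 5.84 and 1.33 with label colours and 7.54 and 5.34 in the replicate 1 wells. Among cells of the class, Ccr8 with Ccr4 and no Ccr3 was seen in 99 red and 16 green cells, and Ccr8 alone in 74 red and 66 green cells, without thinning and by the matrices' colours only.

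Of 11 other receptors tested between the colours, Ccr7 was the 1 that passed, higher in red by 2.04 (edgeR adjusted p = 0.0142) and -0.94 with the label colours. Nr4a1, Nr4a3 and Irf8 of the TCR response were higher in red, as was Gzmb, while Lag3 and Socs2 were lower. These calls rest on the choice of colours and on 1 pool: no gene passed with label colours or without NT day 1 replicate 2 (edgeR). In the CD4 conventional class, where 54 of 5103 genes passed (1.06%, 9 pools), neither Ccr4 (-0.31 ± 0.29, edgeR adjusted p = 0.775) nor Ccr8 (-0.52 ± 0.29, edgeR adjusted p = 0.531) did. With label colours these were -0.080 and 0.056, and in the replicate 1 wells -0.62 and -0.85. Ccr3 had 1 UMI in green and 24 in red CD4 conventional cells. In the CD8 class 382 of 7736 genes passed (4.94%, 12 pools), and Ccr8 was higher in red in 7 of 12 pools by 0.52 ± 0.32 (edgeR adjusted p = 0.377), with -0.63 by label colours and -0.14 in the replicate 1 wells.

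Whether the red against green difference itself changed with radiation was tested in these 6 pools, of which 2 were irradiated. No gene of 6942 passed (0%; edgeR, with 194 at an unadjusted p under 0.05, and 1 by DESeq2). The values were 0.02 ± 0.56 for Ccr4, 0.63 ± 0.69 for Ccr8 and -0.71 ± 0.69 for Ccr3 (edgeR adjusted p = 1.00 for each). With label colours they were -1.15, 1.32 and -1.02.

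For the conditions, both colours of the Foxp3 class were summed per pool, from 148 cells in NT day 1, 146 in RT day 1, 142 in NT day 3, 29 in RT day 3, 23 in FTY720 day 3 and 17 in RT+FTY720 day 3. Ccr8 stood at 301 and 260 CPM in NT day 1 (replicates 1 and 2), 291 and 450 in RT day 1, 202 and 238 in NT day 3, 276 and 328 in RT day 3, 297 and 400 in FTY720 day 3 and 193 and 193 in RT+FTY720 day 3. At day 3 both RT pools lay above both NT pools, and both RT+FTY720 pools below both FTY720 pools. This order rests on few cells. In RT day 3 replicate 1 a single cell of 12 held all 52 Ccr8 UMIs, and in FTY720 day 3 replicate 1 a single cell held 28 of 33. The RT+FTY720 pools had 14 and 25 Ccr8 UMIs. None of these differences passed. RT minus NT was 0.42 ± 0.24 at day 1 (edgeR adjusted p = 1.00, 2 of 7856 genes or 0.0255% passing) and 0.46 ± 0.26 at day 3 (edgeR adjusted p = 0.523). RT+FTY720 minus FTY720 was -0.89 ± 0.33 (edgeR adjusted p = 0.313, unadjusted 0.0159), where 0.0509% of genes passed. The mean of the 3 radiation contrasts was -0.00 ± 0.16 (edgeR adjusted p = 1.00), where 1.77% of genes passed. This mean includes the day 3 contrast, which ran across wells. The radiation difference with FTY720 was lower than that at day 3 by -1.35 ± 0.42 and than that at day 1 by -1.31 ± 0.40, neither past the threshold (edgeR adjusted p = 0.519 and 0.615).

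Ccr4 stood at 198 and 107 CPM in NT day 1, 104 and 123 in RT day 1, 48.9 and 89.6 in NT day 3, 31.8 and 46.1 in RT day 3, 189 and 48.2 in FTY720 day 3 and 68.9 and 131 in RT+FTY720 day 3. Both NT day 3 pools lay below both NT day 1 pools, by -1.06 ± 0.39, which did not pass (edgeR adjusted p = 0.786). Both RT day 3 pools lay below both NT day 3 pools, by -0.83 ± 0.57 (edgeR adjusted p = 0.637). The FTY720 pools spread widely, and the FTY720 difference of 0.90 ± 0.45 did not pass (edgeR adjusted p = 0.669).

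Ccr3 gave the only receptor call among conditions. It stood at 43.1 and 75.6 CPM in NT day 1, 30.3 and 49.4 in RT day 1, 21.7 and 18.2 in NT day 3, 260 and 60.5 in RT day 3, 0 and 31.0 in FTY720 day 3 and 41.4 and 7.70 in RT+FTY720 day 3. Both RT day 3 pools lay above both NT day 3 pools, by 2.90 ± 0.60 (edgeR adjusted p = 0.0271), where 104 of 7856 genes passed, 1.32% (0 without NT day 3 replicate 1). The call rests on few cells and on single pools. The 260 CPM comes from 49 UMIs in 5 of 12 cells, 27 of them in 1 cell, and the call was lost without RT day 3 replicate 1 (1.58, adjusted p = 0.431) or without either NT day 3 pool (2.92 and 2.69, 0.127 and 0.279). It was 1.97 (0.128) in red cells alone. The difference from the day 1 radiation contrast (-0.51 ± 0.49) was 3.41 ± 0.78 and did not pass (edgeR adjusted p = 0.408).

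Between the NT days, and between FTY720 and no FTY720 at day 3, no gene passed with edgeR (0% of 7856 each). At an unadjusted p under 0.05 there were 442 and 594 genes, and DESeq2 called 6 in each. Ccr3 differed by -1.62 ± 0.55 and -1.35 ± 0.71 there (edgeR adjusted p = 0.716 and 0.670), and Ccr8 by -0.34 ± 0.24 and 0.02 ± 0.21 (edgeR adjusted p = 0.995 and 1.00).

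The FTY720 comparison that stays within wells, RT+FTY720 minus RT at day 3, was added after seeing the data. It passed 1 of 7856 genes, 0.0127%, and no receptor. Ccr8 was lower by -0.66 ± 0.33 (edgeR adjusted p = 0.604) and Ccr3 by -2.86 ± 1.01 (edgeR adjusted p = 0.519), with both RT+FTY720 pools below both RT pools for each. In RT day 3 replicate 1, a single cell held all 52 Ccr8 UMIs and a single cell 27 of 49 Ccr3 UMIs. Ccr4 was higher by 1.39 ± 0.72, with both RT+FTY720 pools above both RT pools (edgeR adjusted p = 0.611).

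**Figure D5:**
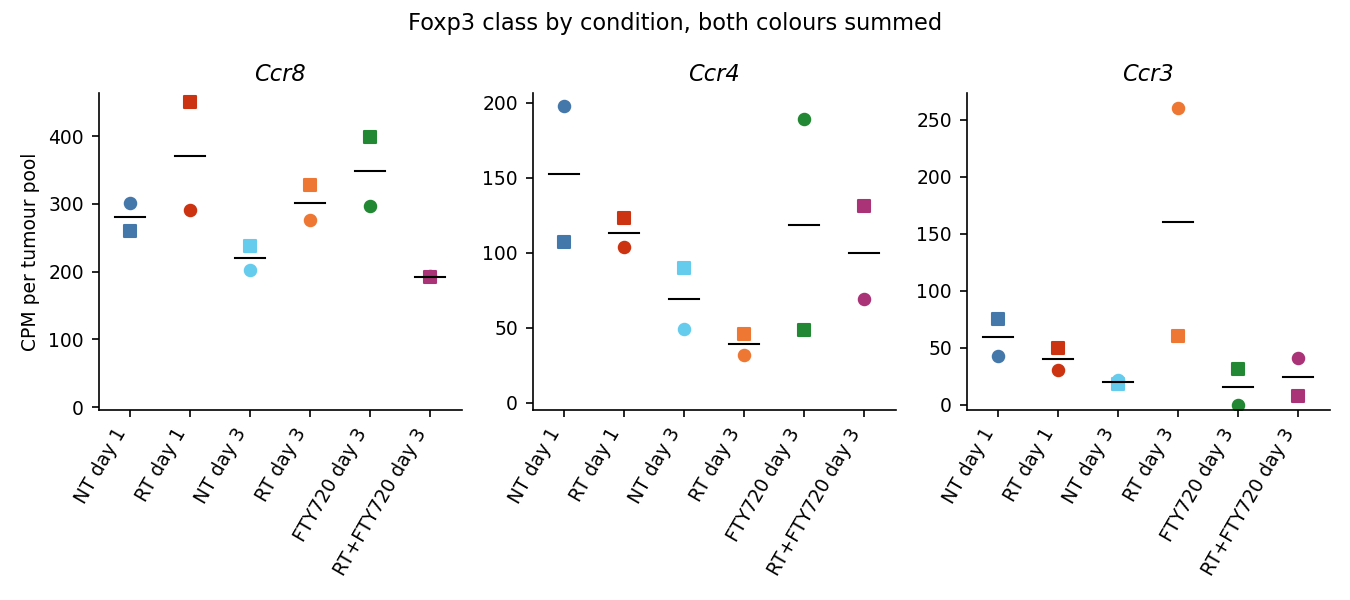
Level of Ccr8, Ccr4 and Ccr3 (CPM, y axis) in the Foxp3 class by condition (x axis); circles are replicate 1, squares replicate 2, and the line is their mean. RT day 3 replicate 1 stands at 260 CPM of Ccr3, and both RT+FTY720 pools stand at 193 CPM of Ccr8.

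Ccr8-detected Foxp3-class cells made up 3.48 ± 2.53% (SD) of green cells in irradiated and 6.02 ± 3.96% in unirradiated pools after thinning, a difference of -2.53 points (exact permutation within strata, two-sided p = 0.269, adjusted 0.537). It was -1.44 with label colours, -0.810 without FTY720 day 3 replicate 1 and -4.25 without FTY720 day 3 replicate 2. In red cells the shares were 9.0 ± 3.39 and 8.84 ± 3.79%, a difference of 0.160 points (p = 0.944, exact permutation), and -0.928 with label colours. Neither passed, also not without thinning (green -5.71 points, adjusted exact p = 0.0926). Bead enrichment and the sort can set these shares.

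A TCR beta chain shared with another Foxp3-class cell of the pool was found in 64 of 452 cells that had one. The share of such cells was 12.3 ± 12.1% with and 6.24 ± 8.86% without Ccr8, higher in 4 and lower in 1 of 8 pools. That difference of 6.10 points did not pass (exact sign-flip permutation p = 0.125, adjusted 0.25) and was 2.62 without NT day 3 replicate 1, and that for Ccr4 was -0.549 points (p = 0.75, exact, 10 pools).

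Of the receptors' ligands, Ccl1 and Ccl5 were found in the sorted cells themselves, mostly outside the Foxp3 class. Ccl1 had 28182 UMIs in the CD8, 7152 in the CD4 conventional and 23 in the Foxp3 class. It was lower in the Foxp3 class by -8.73 and -8.48 (log2). Ccl5, which CCR3 binds, had 80784, 3721 and 2912 UMIs in the CD8, CD4 conventional and Foxp3 classes. Ccl17 and Ccl22 had 5 and 3 UMIs in the Foxp3 class, Ccl8 none, and Ccl11 and Ccl24 none in any class. Only CD90.2-positive cells were sorted. In CD4 conventional cells, those with Ccr8 were higher in Ccl1 by 5.53 (edgeR adjusted p = 0.0298), and in CD8 cells by 2.78, which was 0.98 and did not pass after thinning (edgeR adjusted p = 0.173).

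The genes whose levels were most like those of each receptor are given as descriptions, since the sums share pools, depth and cell class. Over 35 sums by pool and class, the highest Pearson r of log2(CPM + 1) with Ccr8 was that of Trp53i11 (0.817), Fam110a (0.809), Rap2a (0.805), Klrg1 (0.801) and Serp1 (0.791). With Ccr4 it was that of Tiam1 (0.896), Rora (0.887), Cd5 (0.876), Tnfrsf4 (0.873) and Tnfrsf25 (0.867). Ccr4 itself had r = 0.396 and Ccr3 r = 0.595 with Ccr8. Over the 12 sums by pool and colour in the Foxp3 class, Ccr8 lay nearest to Tdg (0.988), Sec23b (0.987), Ncoa6 (0.986), Nkapd1 (0.983) and Pno1 (0.979). Ccr4 lay nearest to Nt5c (0.953), Glrx5 (0.947), Utp4 (0.931), Rpl31 (0.928) and Flna (0.927). There Ccr8 had r = 0.315 with Ccr4 and -0.696 with Ccr3. In 1 of these 12 sums, the 6 green cells of RT day 3 replicate 1, Ccr8 was at 0 and Ccr3 at 476 CPM. The r values of Ccr8 and Ccr3 can follow that sum, and r without it was not computed.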

How the data were processed

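Single-cell libraries (10x GEM-X 5', with hashtags and TCR) of 4 wells were analysed. The authors deposited raw UMI counts for each gene and hashtag in every cell, made with Cell Ranger 8.0.1 and build mm39 according to the submitters' processing notes, and read and UMI counts of TCR contigs; later filtering is not given in the sources used here.

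Barcodes under 500 genes or over 10% mitochondrial UMIs were left out (76 of 2816). Hashtags were assigned where the top one had at least 20 UMIs and 3 times the next, which left out none of the cells kept. No doublet caller was run, and 90 cells with at least 2 TCR beta chains were left out as an alternative. UMIs were summed per pool and class, colour, condition or receptor detection (at least 5 cells), and tested with edgeR 4.0.16 (quasi-likelihood, TMM, filterByExpr, tumour pool as a block except for conditions; R 4.3.3), with Benjamini-Hochberg adjustment over all genes tested and a threshold of 0.05. CPM are TMM-scaled within each fit, so a pool's level differs slightly between fits. Shares of cells were tested by exact permutation over pools (Python 3.11.15, scipy 1.17.1), with cells thinned to 5000 UMIs and shallower cells left out. Pools are separate sets of mice. Where the pool was a block or gave a pair, p-values measure the spread between pools of the differences within them. A condition had 2 pools, so the condition fit took 1 spread per gene over all 6 conditions (6 residual degrees of freedom). That spread was moderated over genes (9.4 prior degrees of freedom), so a condition p-value does not rest on the pools compared alone. Scripts were tested on simulated counts.

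Named genes were the 3 receptors, the listed genes, the 10 largest changes each way among genes past the threshold with 1 direction in every pool in the Ccr8 and Ccr4 splits, and the 5 most alike by Pearson r. Other genes named in the splits of Ccr3 and outside the Foxp3 class were chosen after their values were seen. The members, classes and lists were chosen with earlier results of these data known. Alternatives were DESeq2 1.42.0, no count filter, other class limits, at least 10 cells per sum, thinning, label colours, agreeing wells, colours apart, a replicate block and each pool left out. Promoter sequences are from RefSeq, build GRCm38.p6, which is not the build of the counts; no genome or protein sequence was used. A planned background gate and some listed genes are not reported here. All 3 receptors passed the count filter in the class, condition and Foxp3-class colour comparisons, and Ccr3 was too low to test between colours in the other classes.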

Additional observations from a re-analysis of the deposited data

Results flagged for a closer look

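In 5 of 24 groups of 4 to 10 samples, 1 sample stood far from the others, where chance does so in about 1 in 20 groups. Ccr3 in green Foxp3-class cells stood at 476 CPM in RT day 3 replicate 1 (39 UMIs in 6 cells), with the nearest other pool at 91.5. Ccr8 in green CD4 conventional cells stood at 487 CPM in RT day 1 replicate 1 (49 UMIs in 7 cells), with the nearest at 237. In red CD4 conventional cells it stood at 329 CPM in RT+FTY720 day 3 replicate 2 (26 UMIs in 6 cells), with the nearest at 177. Ccr8 in Ccr3-detected Foxp3-class cells stood at 381 CPM in RT day 1 replicate 2 (232 UMIs in 28 cells), with the nearest at 158. Ccr4 in Ccr8-detected CD4 conventional cells stood at 176 CPM in RT day 3 replicate 2 (22 UMIs in 10 cells), with the nearest at 82.5. Of these 5 values, 4 come from 10 cells or fewer.

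Among cells that no comparison used, those with both Foxp3 and CD8 UMIs showed Ccr8 more often than CD8 cells with Ccr7 and Lef1. Ccr8 had a UMI in 44 of 62 such cells, 71.0%. The share was 10.9% in CD8 cells with Ccr7 and Lef1, 44.8% in the other CD8 cells and 61.4% in the Foxp3 class. After thinning these shares were 38.7, 4.39, 24.4 and 41.4%, in the same order. At equal depth the 62 cells thus lay above both CD8 groups but not above the Foxp3 class. Their median depth was 26882 UMIs, against 19681 in the Foxp3 class and 22625 in the CD8 class, and cells of 2 kinds in 1 droplet were not tested for. Ccr4 was found in 43.5% and Ccr3 in 12.9% of them.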

How the results depend on the processing

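The class comparisons and the Ccr4 and Ccr3 values of the Ccr8 split kept their direction and side of the threshold under every alternative run. Of the receptor values, 388 kept both under other settings (500 with 1 pool left out), 32 (30) turned their direction, 9 (14) lost a call and 8 (none) gained one. Most that turned were near 0 or rested on pools of few cells, and the cause was not tested. Depth and cell number limit the day 3 groups, with 17 to 29 Foxp3-class cells per condition in the wells with RT day 3 and FTY720. Without doublet calls, a cell pair in 1 droplet could enter any class.

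Without a count filter (log2 values, edgeR adjusted p in brackets), Ccr8 passed in the red minus green comparison of the Foxp3 class at 0.63 (0.0125) and of the CD8 class at 0.55 (0.000315). So did, for NT day 3 minus NT day 1, Ccr4 at -1.08 (0.0211) and Ccr3 at -1.65 (0.00175), Ccr3 in the Ccr4 split at 0.89 (0.0247) and Ccr3 in RT+FTY720 minus RT at -2.86 (0.0119). Ccr8 became -0.045 for FTY720 and -0.044 for the radiation effect at day 3 minus day 1.

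With at least 5 Foxp3 UMIs, Ccr4 red minus green was 1.07 (0.0556), Ccr3 red minus green 0.078, Ccr3 RT minus NT at day 3 2.21 (0.0685), Ccr3 RT+FTY720 minus FTY720 0.17, Ccr8 in the Ccr4 split -0.69 (0.0544) and Ccr8 day 3 minus day 1 radiation effect -0.13. For the radiation effect on red minus green, Ccr8 was -0.40 and Ccr3 0.33. With at least 1 Foxp3 UMI, Ccr4 passed in the Ccr3 split at 0.76 (0.0306). With at least 10 cells per sum, red minus green was 0.93 (0.0595) for Ccr4 and 0.25 for Ccr3 in the Foxp3 class and 0.085 for Ccr4 in the CD4 conventional class. The radiation effect on it was -0.31 for Ccr8 and 0.13 for Ccr3, and FTY720 contrasts could not be fitted. Without cells of 2 beta chains, Ccr4 red minus green was 1.05 (0.0595), and Ccr8 was 0.039 for mean radiation, -0.0049 for FTY720 and -0.020 for the day 3 minus day 1 radiation effect.

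With label colours, red minus green was -0.33 for Ccr4 and -0.94 for Ccr7 in the Foxp3 class, and for Ccr8 0.056 in CD4 conventional and -0.63 in CD8 cells. The radiation effect on it was -1.15 for Ccr4. The detection difference was -0.653 points for Ccr4 (-5.70 without thinning) and -5.49 for Ccr3 without thinning, and the share of Ccr8-detected cells among red cells, RT minus NT, -0.928 points. In the wells where colours agree, Ccr8 was -0.14 in CD8 cells and 10.21 (0.0208) for the radiation effect on red minus green, which there sets the 1 irradiated pool, with its 6 green cells at 0 UMIs, against NT. Ccr3 detection there was -0.245 points without thinning.

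In green cells only, RT minus NT was 0.15 for Ccr4 at day 1 and -9.45 (0.00285) for Ccr8 at day 3, which rests on the same 6 cells, as does -10.69 for Ccr8 day 3 minus day 1 radiation effect. NT day 3 minus NT day 1 was 0.080 for Ccr8 and 0.013 for Ccr4, and FTY720 contrasts could not be fitted. In red cells only, Ccr3 was 1.97 (0.128) for RT minus NT at day 3, -0.44 for mean radiation and -2.33 for the radiation effect with FTY720 minus day 1. DESeq2 gave -0.070 for Ccr4 and 0.18 for Ccr3 in RT+FTY720 minus FTY720, 0.0040 for Ccr8 in mean radiation and -0.26 for Ccr4 in the radiation effect on red minus green. With all barcodes Ccr8 mean radiation was 0.011.

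Thinning before the split gave -0.053 for Rapgef5 in the Ccr4 split and -0.82 (0.162) for Ccr8 in the Ccr3 split, and a split at 2 UMIs gave -1.27 (0.104) for the latter. Without thinning Ccr8 in cells with Ccr4 differed by -14.2 points, and at 10000 UMIs Ccr8 detection, red minus green, was -5.61 points.

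With 1 pool left out, red minus green in the Foxp3 class ran from 0.90 to 1.18 for Ccr4 and -0.65 to 0.051 for Ccr3, and the radiation effect on it from -0.37 to 10.88 for Ccr8, -1.45 to 0.30 for Ccr4 and -2.32 to 0.39 for Ccr3. RT minus NT ran from -0.80 to 0.095 for Ccr4 at day 1 and 1.58 to 3.70 for Ccr3 at day 3, and RT+FTY720 minus FTY720 from -0.82 to 1.12 for Ccr4 and -1.50 to 7.16 for Ccr3. Ccr8 ran from -0.16 to 0.084 for mean radiation, -0.18 to 0.071 for FTY720, -0.88 to -0.67 in the Ccr4 split and -1.80 to -1.27 in the Ccr3 split. Radiation at day 3 minus day 1 ran from -0.28 to 0.37 for Ccr8 and -0.98 to 0.087 for Ccr4. Radiation with FTY720 minus day 1 ran from -0.43 to 1.51 for Ccr4 and -0.99 to 7.66 for Ccr3, and minus day 3 from -4.37 to 4.29 for Ccr3. Points differed from -1.30 to 5.28 for Ccr8 detection by colour, -1.25 to 1.58 for the Ccr8-detected share of red cells, -4.25 to -0.810 for that of green cells, 2.62 to 7.17 for clonal sharing with Ccr8 and -1.25 to 0.448 with Ccr4.

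Counts of genes called moved more. Red minus green in the Foxp3 class gave 71 genes, 0 with label colours, 6 in agreeing wells, 210 with DESeq2, 425 without a filter and 0 without NT day 1 replicate 2. RT minus NT at day 3 gave 104, from 38 (red cells) to 306 (no filter), and 0 without NT day 3 replicate 1. The Ccr4 split gave 111, from 72 to 384, and 18 without NT day 1 replicate 2. The Ccr3 split gave 73, from 26 to 304, and 11 without it. The Ccr8 split gave 1798, from 1577 to 1960, and 1120 to 2484 in CD8 cells (main 2105) and 381 to 815 in CD4 conventional cells (main 459, and 220 without NT day 1 replicate 2). Mean radiation gave 139, from 66 to 357, and 51 without RT+FTY720 day 3 replicate 2. Red minus green gave 54 (0 to 298) in CD4 conventional and 382 (0 to 925) in CD8 cells, and 20 and 153 without RT day 1 replicate 2. RT minus NT at day 1 gave 2 (0 to 60), RT+FTY720 minus FTY720 4 (1 to 134), RT+FTY720 minus RT 1 (0 to 46), NT days 0 (0 to 117), FTY720 0 (0 to 47) and the radiation effect on red minus green 0 (0 to 34).

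Deviations of pools of 1 well and number correlated weakly. Their r was -0.0232 to 0.0888 (median 0.0399) within 6 same-well pairs and -0.0606 to 0.0982 (median -0.00956) in 9 others. Counting error in pools of few cells lowers such r, so these values cannot show that a shared deviation is absent. The replicate numbers are not used as pairs. With a replicate block Ccr3 at day 3 was 2.90 (0.0289), no receptor call changed, and RT+FTY720 minus FTY720 and FTY720 gave 7 and 3 genes.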
